A study of Mus musculus with 10 samples.

Results

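The T cell receptor variable gene segments examined here were the 59 gene symbols, of 24202 in the expression table, that begin with Trav, Trbv, Trgv or Trdv and had a value above 0 in at least 1 of 10 tumors. They comprised 36 alpha (Trav), 19 beta (Trbv), 3 delta (Trdv) and 1 gamma (Trgv2) segments. No row of the table had fewer than 10 reads over the 10 tumors. Segments read less often are thus not among the members, and their reads are missing from the shares and segment numbers below. MB-49 is a bladder cancer line of the mouse, and its tumors, grown subcutaneously on the flank, were dissociated and their RNA was sequenced in bulk. All mice carried the hLrrc32 knock-in, a human gene for GARP, the surface protein that holds latent TGF-beta. In the treated group, 5 tumors came from mice that received PIIO-1, an antibody to GARP, by the peritoneal route at 200 ug per mouse on days 6 and 9. In the control group, 5 tumors came from mice given PBS, and both groups were collected on day 10 after injection of 100000 tumor cells. The age and sex of the mice were not given in the sources used here, and the labels do not say whether each tumor came from its own mouse, so p-values measure the spread between these samples.

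A T cell receptor is built from an alpha and a beta chain, or from a gamma and a delta chain. In each developing T cell, recombination joins 1 variable segment of a chain to a joining segment, and in beta and delta chains to a diversity segment as well. The variable segment encodes most of the antigen-binding domain, including the first and second complementarity-determining loops. A population of many unrelated T cells uses many segments, and the use becomes uneven where few clones supply much of the receptor RNA. Gene-level counts hold no junction sequence, so segment use can be read from them and clones cannot.

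Values are normalized counts, which are gene read counts scaled for library size by DESeq2. Whole reads could be recovered from every library. The libraries held between 18843192 reads in genes (PBS tumor 4) and 37581521 (PBS tumor 3), and 1 read was worth between 0.817 and 1.56 normalized counts. A listed value of 0 allows up to 3 reads, which is between 2.45 and 4.68 normalized counts. Intervals and such floors cover counting error only, because these reads carry no molecular identifiers. Variable segments took between 211 reads (PBS tumor 4) and 715 reads (PIIO-1 tumor 5), so the numbers below rest on few reads per tumor.

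The segments on which the results turn are shown by the last 90 bases of their coding sequence, taken from the GENCODE transcripts of build GRCm38. Capitals mark the first in-frame cysteine codon in the last 30 bases. Trbv20 and Trav5-4 led their chains in 1 PBS tumor, and Trbv16 led in another, where Trbv3 was also highest. Trav14n-1 and Trav19 each led in 1 PIIO-1 tumor, and Trdv4 was the highest of the 3 Trdv segments throughout.
Trbv20: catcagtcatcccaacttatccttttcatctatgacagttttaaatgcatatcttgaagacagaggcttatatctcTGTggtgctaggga
Trbv16: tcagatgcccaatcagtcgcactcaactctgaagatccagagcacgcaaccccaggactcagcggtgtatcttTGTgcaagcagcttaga
Trbv3: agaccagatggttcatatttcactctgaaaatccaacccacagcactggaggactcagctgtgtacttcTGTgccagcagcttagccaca
Trav5-4: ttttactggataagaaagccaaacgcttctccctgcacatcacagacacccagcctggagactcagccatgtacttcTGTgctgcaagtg
Trav14n-1: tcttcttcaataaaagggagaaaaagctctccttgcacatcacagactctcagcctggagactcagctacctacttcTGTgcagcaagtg
Trav19: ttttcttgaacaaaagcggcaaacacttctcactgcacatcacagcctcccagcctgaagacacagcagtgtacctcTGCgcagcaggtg
Trdv4: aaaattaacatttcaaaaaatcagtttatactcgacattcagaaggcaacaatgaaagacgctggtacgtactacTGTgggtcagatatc

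The 3 Trbv13 segments together had the most reads of any beta subfamily. They are set side by side, with capitals at the 22 of 90 positions where they are not all alike, because the separation of their reads depends on such positions.
Trbv13-1: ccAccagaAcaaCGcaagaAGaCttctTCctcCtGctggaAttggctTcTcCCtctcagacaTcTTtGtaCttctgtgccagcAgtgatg
Trbv13-2: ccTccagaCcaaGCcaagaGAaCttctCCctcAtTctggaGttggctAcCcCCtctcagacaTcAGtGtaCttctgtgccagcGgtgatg
Trbv13-3: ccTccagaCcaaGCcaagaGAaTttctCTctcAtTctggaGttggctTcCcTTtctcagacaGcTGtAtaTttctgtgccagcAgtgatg
Over the whole coding sequence, Trbv13-2 and Trbv13-3 shared 90.6% of bases, Trbv13-1 and Trbv13-2 88.7%, and Trbv13-1 and Trbv13-3 86.1%.

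The members covered part of each locus, where an annotated segment with fewer than 10 reads in all would have no row. The 19 beta segments lay on chromosome 6 between 40891229 and 41558452 and were 54.3% of the 35 Trbv genes in the GENCODE annotation of GRCm38. The 36 alpha segments lay on chromosome 14 between 52427928 and 53845827 and were 28.1% of 128 annotated Trav genes. Only 1 member, Trbv24, is annotated as a pseudogene, against 34 pseudogenes among the 170 annotated variable segments.

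The alpha locus of this build contains duplicated blocks, whose copies have the letter d or n in their names. Of Trav genes without such a letter, 25 of 55 were members (45.5%), against 5 of 39 with d (12.8%) and 6 of 34 with n (17.6%). Segments without a letter carried 603 of the 859 Trav reads (70.2%). Of 72 Trav genes with another segment at least 98% identical in coding sequence, 14 were members (19.4%), against 22 of 56 without one (39.3%). How reads that fit several copies were counted is not given in the sources used here, so the Trav values of such pairs are uncertain. Trav14n-1 is identical to Trav14d-1 in coding sequence, and Trav5-4 is 98.3% identical to Trav5n-4. No Trbv gene had such a copy.

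Detection differed between the chains. Of 19 Trbv segments, 15 had a read in all 10 tumors, and the chain had 2680 reads in all, with a median of 120.0 reads per segment. No alpha segment was read in all 10 tumors: 859 reads were spread over 36 segments, with a median of 19.0 per segment, and 13 of them had a read in 5 tumors or fewer. All 3 delta segments were read in every tumor, with 781 reads. Trgv2 had 90 reads in 9 tumors.

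The highest Trbv shares were found in single tumors, and different segments led in PBS tumor 1 and in PBS tumor 3. Trbv16, at chr6:41151740-41152230, had 308 reads, the most of any beta segment. Its levels were 120.4, 18.5, 17.1, 12.5 and 10.3 normalized counts in PBS tumors 1 to 5, and 31.8, 13.7, 5.03, 20.1 and 47.2 in PIIO-1 tumors 1 to 5. PBS tumor 1 stood above all others, and the remaining 9 tumors of both groups overlapped. In PBS tumor 1 Trbv16 was 126 of 454 Trbv reads, a share of 27.8% (95% Wilson interval 23.8 to 32.0).

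**Figure D1:**
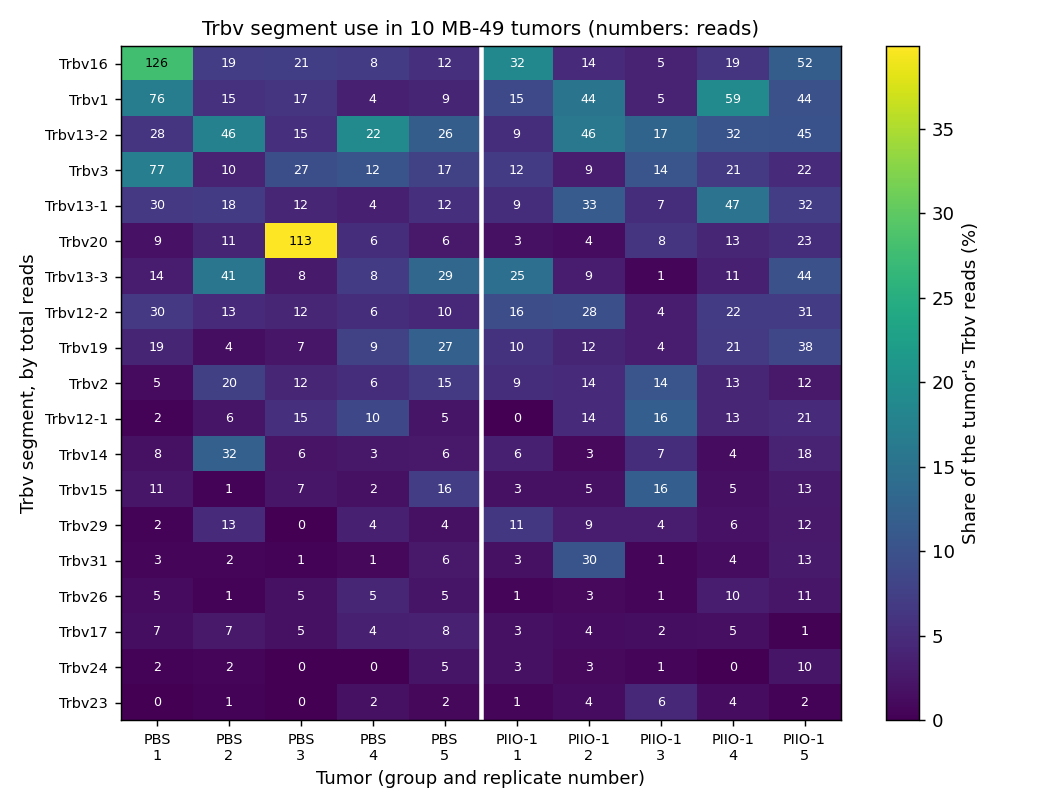
Share of each tumor's Trbv reads (color, percent) by segment (vertical axis, ordered by total reads) and tumor (horizontal axis, 5 PBS and 5 PIIO-1), with the read number in each cell. Trbv20 in PBS tumor 3 (113 reads) and Trbv16 in PBS tumor 1 (126 reads) are the brightest cells, and no PIIO-1 tumor has a segment above 19.1%.

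Trbv20, at chr6:41188273-41188977, was concentrated in a different PBS tumor. Its levels were 8.60, 10.7, 92.3, 9.36 and 5.17 normalized counts in PBS tumors 1 to 5 and 2.98, 3.91, 8.04, 13.8 and 20.9 in PIIO-1 tumors 1 to 5. The level in PBS tumor 3 was 4.42 times that of the next tumor. There Trbv20 made up 113 of 283 Trbv reads, 39.9% (34.4 to 45.7), whereas in the other 9 tumors its share lay between 1.39% and 6.02%.

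Trbv3 and Trbv1 were also highest in PBS tumor 1. Trbv3, at chr6:41048290-41048828, was at 73.6, 9.75, 22.0, 18.7 and 14.6 normalized counts in the PBS tumors and at 11.9, 8.81, 14.1, 22.2 and 20.0 in the PIIO-1 tumors. Trbv1, at chr6:40891229-40891885, is the first segment of the locus and a known partner in the receptors of NKT cells. It was at 72.6, 14.6, 13.9, 6.24 and 7.75 normalized counts in the PBS tumors and at 14.9, 43.1, 5.03, 62.4 and 39.9 in the PIIO-1 tumors. Trbv1 was thus above 30 reads in 1 PBS tumor and in 3 PIIO-1 tumors, and the groups overlapped. In PBS tumor 1, Trbv16, Trbv3 and Trbv1 together made up 61.5% of Trbv reads.

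The Trbv13 segments, which include Trbv13-2 of NKT cell receptors, together held 25.4% of all Trbv reads. Trbv13-2 was the most read beta segment in PBS tumors 2 and 4 and in PIIO-1 tumors 2 and 3. Its levels were 26.7, 44.9, 12.2, 34.3 and 22.4 normalized counts in the PBS tumors and 8.95, 45.0, 17.1, 33.9 and 40.8 in the PIIO-1 tumors, a nearly complete overlap. Trbv13-1 was at 28.7, 17.6, 9.80, 6.24 and 10.3 in PBS tumors and at 8.95, 32.3, 7.04, 49.7 and 29.0 in PIIO-1 tumors. Trbv13-3 was at 13.4, 40.0, 6.53, 12.5 and 25.0 in PBS tumors and at 24.9, 8.81, 1.01, 11.6 and 39.9 in PIIO-1 tumors. The 3 close relatives did not peak in the same tumors: PIIO-1 tumor 4 was highest for Trbv13-1 and had 11 reads of Trbv13-3. Summed, the subfamily was at 62.1 ± 26.9 normalized counts (SD, n = 5) in PBS tumors and 71.8 ± 36.1 (SD, n = 5) in PIIO-1 tumors.

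Per kilobase of exon, the beta segment with the highest mean over all tumors was Trbv13-2 (84.2 normalized counts per kilobase), followed by Trbv16 (74.6), Trbv1 (67.3) and Trbv13-1 (54.6). Trbv12-2 was at 28.7, 12.7, 9.80, 9.36 and 8.61 normalized counts in the PBS tumors and at 15.9, 27.4, 4.02, 23.3 and 28.1 in the PIIO-1 tumors. Trbv29, another segment of NKT cell receptors, ranged from 0 to 12.7 normalized counts in PBS tumors and from 4.02 to 10.9 in PIIO-1 tumors. Trbv31 is a segment that lies apart at the far end of the locus on the opposite strand (chr6:41557691-41558452), and it was chosen after its values were seen. Trbv31 had 30 reads in PIIO-1 tumor 2 and 13 in PIIO-1 tumor 5, and at most 6 reads in any other tumor.

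Alpha segments also had peaks in single tumors, on fewer reads. Trav5-4, at chr14:53704007-53704514, was at 1.91, 5.85, 34.3, 3.12 and 2.58 normalized counts in the PBS tumors and at 0, 0.979, 2.01, 2.12 and 9.98 in the PIIO-1 tumors. PBS tumor 3, the tumor with the Trbv20 peak, held 42 of its 71 reads. In that tumor Trav5-4 was 42 of 87 Trav reads, 48.3% (38.1 to 58.6), against at most 7.05% elsewhere.

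**Figure D2:**
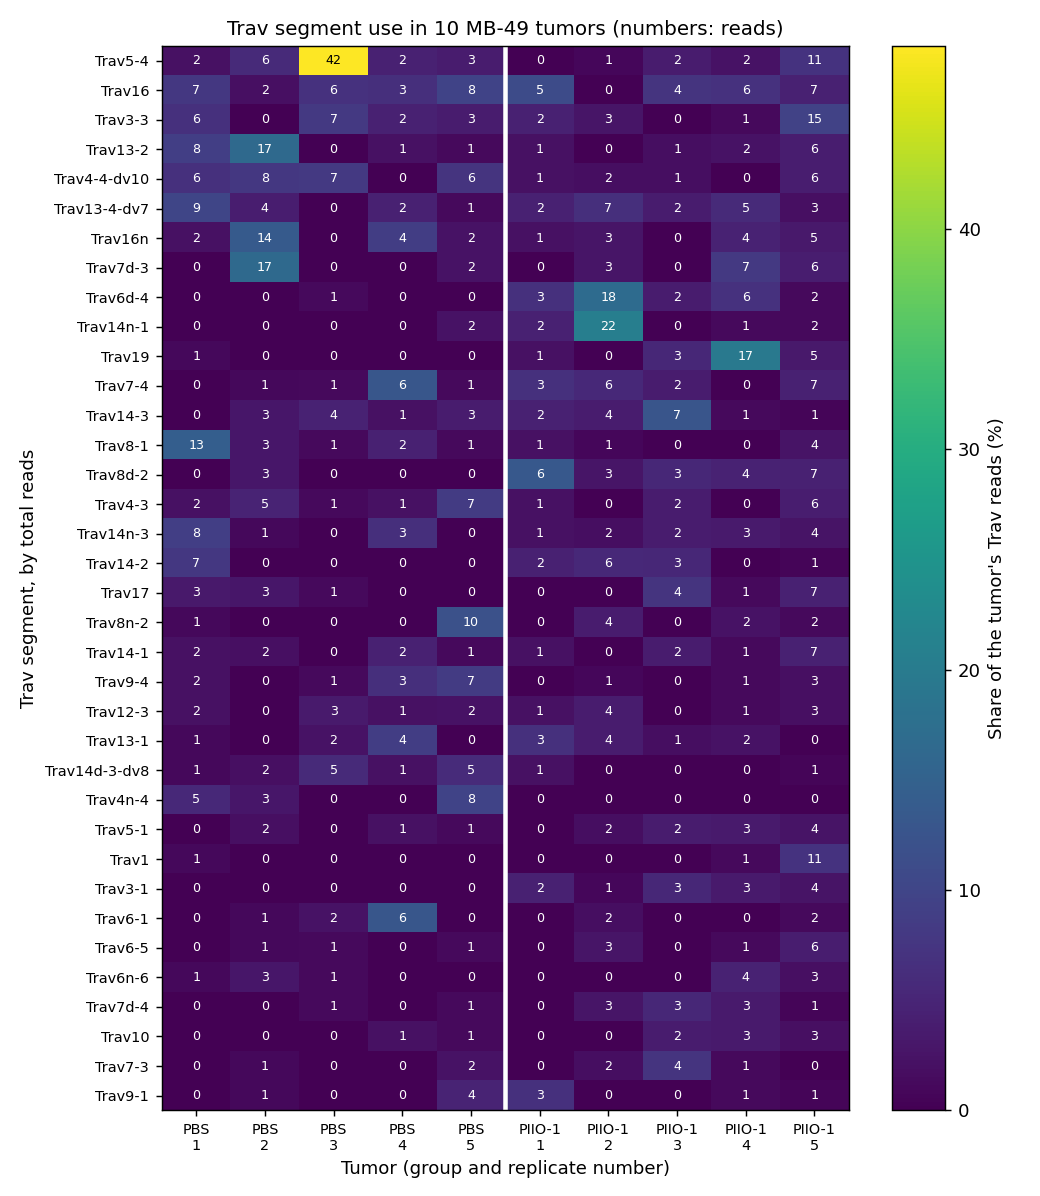
Share of each tumor's Trav reads (color, percent) by segment (vertical axis, ordered by total reads) and tumor (horizontal axis, 5 PBS and 5 PIIO-1), with the read number in each cell. Trav5-4 in PBS tumor 3 (42 reads) is the brightest cell; other bright cells lie in single tumors of both groups, such as Trav14n-1 in PIIO-1 tumor 2 (22 reads).

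In PIIO-1 tumors the largest alpha shares belonged to other segments. Trav14n-1, at chr14:53166626-53167178, had 22 reads in PIIO-1 tumor 2, 20.6% of that tumor's Trav reads (14.0 to 29.2), and at most 2 reads in each of the other tumors. Trav19, at chr14:53845234-53845827, had 17 reads in PIIO-1 tumor 4, 19.5% (12.6 to 29.1), then 5 reads in PIIO-1 tumor 5 and 3 in PIIO-1 tumor 3. In the PBS tumors Trav19 had 1 read in all. PIIO-1 tumor 5 had the most Trav reads, 156 over 33 segments, and its leading segment, Trav3-3, took 9.62% of them (5.91 to 15.3).

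Most used Trav segments in the other tumors rested on 6 to 17 reads. Trav8-1 led in PBS tumor 1 with 13 reads (14.4%, 8.64 to 23.2), Trav13-2 and Trav7d-3 shared the lead in PBS tumor 2 with 17 reads each, and Trav7-4 and Trav6-1 did so in PBS tumor 4 with 6 each. Trav8n-2 led in PBS tumor 5 with 10 reads, Trav8d-2 in PIIO-1 tumor 1 with 6 and Trav14-3 in PIIO-1 tumor 3 with 7. No segment led the Trav reads of more than 1 tumor, whereas Trbv16 and Trbv13-2 led the Trbv reads of several. Among the other alpha segments with high means, Trav16 ranged from 0 to 6.89 normalized counts, Trav16n from 0 to 13.7, Trav13-4-dv7 from 0 to 8.60 and Trav4-4-dv10 from 0 to 7.80 over the 10 tumors. Trav16 and Trav16n are 98.6% identical, and Trav7d-3 is 99.4% identical to Trav7-3, so reads within each pair may have been divided between them.

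Trav1 encodes the alpha segment of the receptor of MAIT cells, which see microbial vitamin metabolites. It had 11 reads in PIIO-1 tumor 5 (9.98 normalized counts, 7.05% of Trav reads), 1 read in PIIO-1 tumor 4, 1 in PBS tumor 1 and none in the other 7 tumors. The same PIIO-1 tumor had 7 of the 10 reads of Traj18, the joining segment of NKT cell alpha chains. Without that tumor neither Trav1 nor Traj18 would have reached the 10 reads that every row had. Their meeting in it is thus partly set by that minimum, and it also had the most Trav reads, 156. Trav11, the usual variable partner of Traj18, and the copy Trav11d are annotated but were not among the members. A segment with fewer than 10 reads in all would have no row. Trav11 and Trav11d are identical in coding sequence, and how reads that fit both were counted is not given. Their absence thus cannot show that no such reads were present.

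A segment was counted as having a peak in 1 tumor where its level was at least 3 times that of the next tumor on at least 10 reads, a limit chosen after the data were seen. By it 7 of 59 segments had a peak, where 0.583% of all genes did at all levels of expression: Trav5-4 and Trbv20 in PBS tumor 3, Trav8-1 and Trbv3 in PBS tumor 1, and Trav14n-1, Trav19 and Trav1 in PIIO-1 tumors 2, 4 and 5. Thus 4 peaks lay in PBS and 3 in PIIO-1 tumors. Trav1 had 11 of its 13 reads and Trav14n-1 22 of its 29 in the tumor of the peak. Without that tumor each would have stayed below the 10 reads that every row of the table had. All genes are not a like background: 16767 of 24202 had a mean of at least 10 normalized counts, against 12 of 59 segments. Trav6d-4, at 2.77 times the next tumor, and Trbv16, at 2.55 times, lay just below the limit, and Trbv3, at 3.31 times, just above it.

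**Figure D3:**
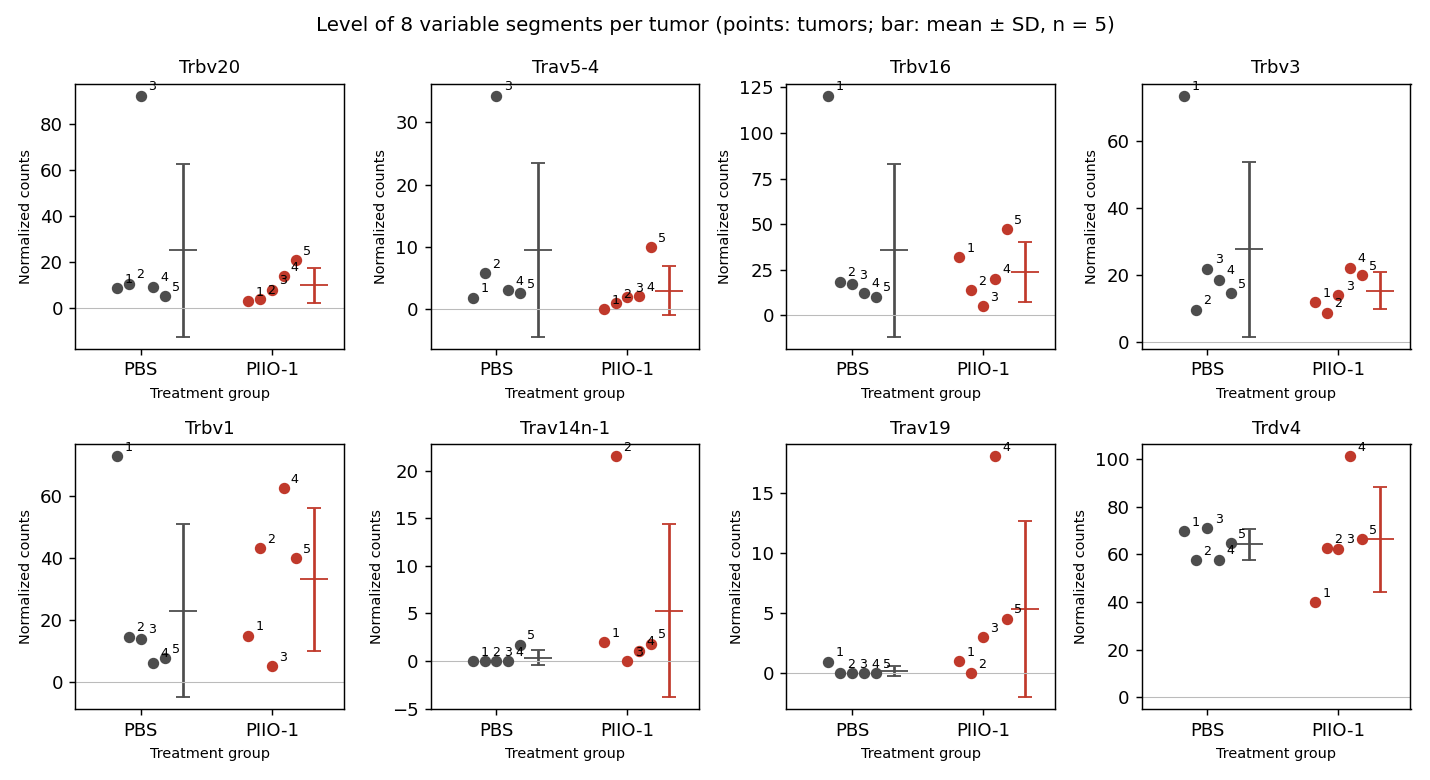
Level of 8 segments (vertical axis, normalized counts) in each tumor, by treatment group (horizontal axis); points are tumors with their replicate numbers, bars are mean ± SD, n = 5 per group. Trbv20 and Trav5-4 are high in PBS tumor 3, Trbv16, Trbv3 and Trbv1 in PBS tumor 1, and Trdv4 lies between 39.8 and 101 in every tumor.

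Evenness of segment use was summarised per tumor by Shannon evenness, the entropy of the segments' read shares divided by its highest possible value for the number of segments seen; 1 means equal use. For Trbv it was 0.773, 0.859, 0.791, 0.922 and 0.926 in PBS tumors 1 to 5 and 0.884, 0.876, 0.896, 0.889 and 0.924 in PIIO-1 tumors 1 to 5. PBS tumors 1 and 3 were the least even, and PBS tumors 4 and 5 were about as even as the most even PIIO-1 tumor. The means were 0.854 ± 0.0711 (SD, n = 5) in PBS tumors and 0.894 ± 0.0183 (SD, n = 5) in PIIO-1 tumors. The difference of 0.0400 was smaller than the spread among PBS tumors, and without PBS tumor 1 it was 0.0197.

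Trav evenness had the same order of means. It was 0.899, 0.860, 0.692, 0.935 and 0.906 in PBS tumors and 0.942, 0.870, 0.963, 0.892 and 0.939 in PIIO-1 tumors. The means were 0.859 ± 0.0971 (SD, n = 5) and 0.921 ± 0.0384 (SD, n = 5), with overlapping groups. PBS tumor 3, with its Trav5-4 reads, stood far below the rest, and without it the difference of 0.0626 became 0.0209. No test was made of evenness, which is a score over the segments. It was not brought to equal read totals, and the tumors with the fewest Trav reads were among the most even. These were PIIO-1 tumor 1 (45 reads, 0.942), PBS tumor 4 (46 reads, 0.935) and PIIO-1 tumor 3 (55 reads, 0.963). PIIO-1 tumor 5, with the most Trav reads (156), was also among the most even, at 0.939.

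The share of the most used Trbv segment was 23.5% ± 10.6 (SD, n = 5) in PBS tumors, from 13.2% to 39.9%, and 15.7% ± 3.36 (SD, n = 5) in PIIO-1 tumors, from 11.7% to 19.1%. For Trav it was 20.9% ± 15.4 (SD, n = 5) and 15.2% ± 4.70 (SD, n = 5). The Trbv difference of -7.82 percentage points was -3.71 without PBS tumor 3. The lower Trav mean of the PIIO-1 group rested on PBS tumor 3: without that tumor the PIIO-1 mean was 1.15 percentage points above the PBS mean. Divided by exon length, the most used Trbv segment was another one in PIIO-1 tumor 5 only, where it was Trbv13-2 instead of Trbv16.

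**Figure D4:**
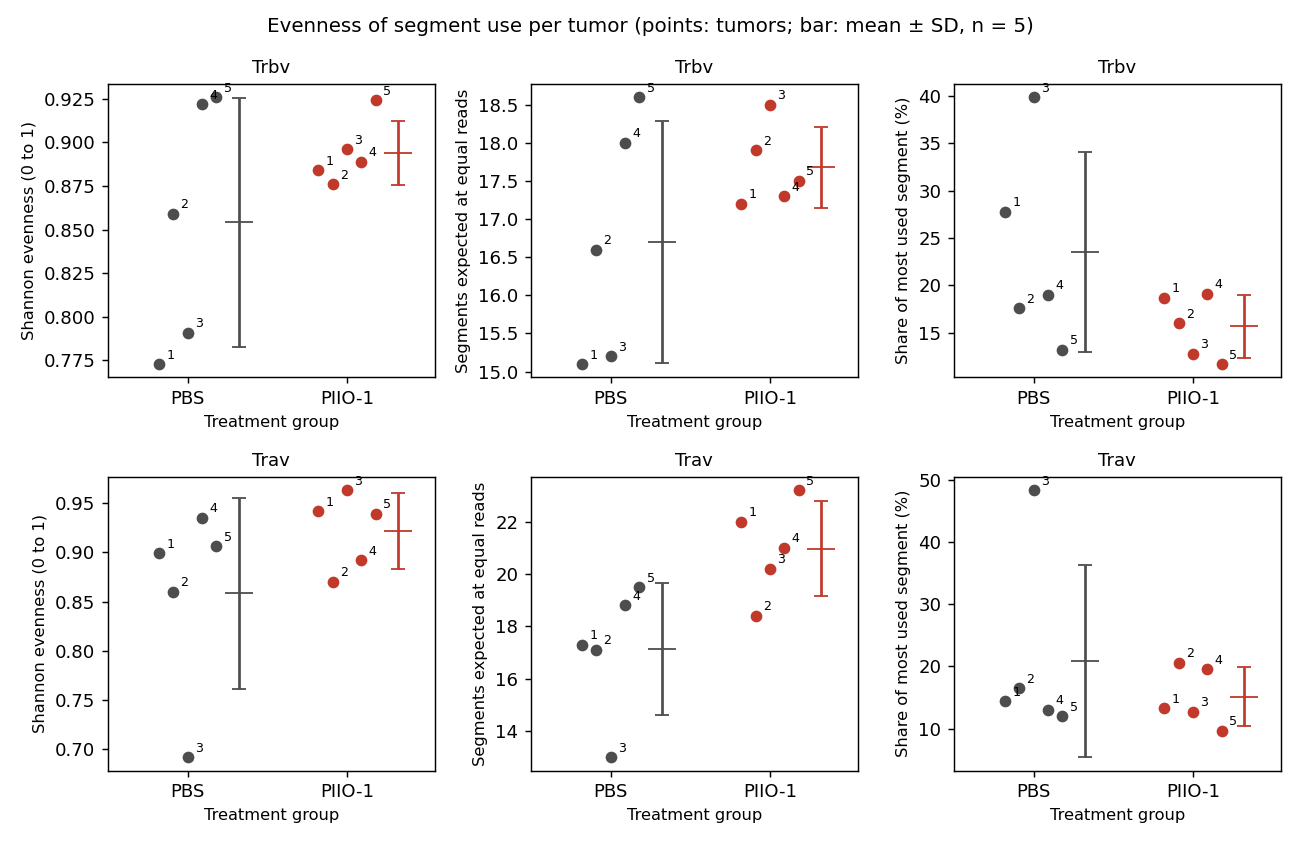
Shannon evenness, number of segments expected at equal read totals and share of the most used segment (vertical axes) by treatment group (horizontal axis), for Trbv (top row) and Trav (bottom row); points are tumors with their replicate numbers, bars are mean ± SD, n = 5 per group. Groups overlap in every panel; PBS tumors 1 and 3 have the lowest Trbv evenness, and PBS tumor 3 alone sets the lowest Trav evenness.

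Between 16 and 19 Trbv segments had a read in each tumor. Because more reads find more segments, each tumor was also brought to the smallest read total, 116 Trbv reads and 45 Trav reads. At 116 reads the expected number of Trbv segments was 15.1, 16.6, 15.2, 18.0 and 18.6 in PBS tumors and 17.2, 17.9, 18.5, 17.3 and 17.5 in PIIO-1 tumors. At 45 reads that of Trav segments was 17.3, 17.1, 13.0, 18.8 and 19.5 in PBS tumors and 22.0, 18.4, 20.2, 21.0 and 23.2 in PIIO-1 tumors. Here 4 of 5 PIIO-1 tumors were above every PBS tumor, and PIIO-1 tumor 2 lay among the PBS tumors. Segments entered these numbers only with at least 10 reads over all tumors, which equal read totals do not undo. Some Trav segments reached that minimum only through PIIO-1 tumors, such as Trav3-1, Trav6d-4, Trav19 and Trav8d-2. Others, such as Trav4n-4 and Trav14d-3-dv8, did so only through PBS tumors. The Trav numbers thus cannot show which group used more segments. The Trav means were 17.2 ± 2.53 (SD, n = 5) and 20.9 ± 1.83 (SD, n = 5), and the Trbv means 16.7 ± 1.60 (SD, n = 5) and 17.7 ± 0.520 (SD, n = 5).

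Pairs of tumors were compared by the share of segment use they had in common, the sum over segments of the lower of both shares. For Trbv its median was 53.8% over 10 pairs of PBS tumors, 62.6% over 10 pairs of PIIO-1 tumors and 63.8% over 25 pairs across the groups. For Trav the medians were 39.9%, 48.0% and 34.1%. The pairs share tumors and are not independent, and fewer Trav reads lower the common share. Trbv use was thus no more alike within a group than across the groups by these medians. For Trav both medians within a group were above the one across the groups, which was not tested. Some Trav segments reached the minimum of 10 reads over all tumors through the tumors of a single group only. Examples are Trav3-1 and Trav6d-4 for PIIO-1 tumors and Trav4n-4 for PBS tumors. Such segments can add to the common share within a group but hardly across the groups. The Trav medians thus cannot show that segment use differed by group. The least alike Trav pair was PBS tumor 3 and PIIO-1 tumor 4, at 21.8%.

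Among the 3 Trdv segments, 1 had most of the reads. Trav13-4-dv7, Trav4-4-dv10 and Trav14d-3-dv8 carry a delta number in their names as well, but were counted with Trav only. Trdv4, at chr14:54074905-54075515, is a delta variable segment known from the epidermal gamma-delta T cells of mouse skin, but its source cells here were not tested. Its levels were 69.7, 57.5, 71.0, 57.7 and 64.6 normalized counts in the PBS tumors and 39.8, 62.6, 62.3, 101 and 66.2 in the PIIO-1 tumors. The means were 64.1 ± 6.40 (SD, n = 5) and 66.3 ± 21.8 (SD, n = 5), and PIIO-1 tumors held both the lowest and the highest value. Trdv4 made up between 77.3% (68.0 to 84.5, PBS tumor 5) and 92.2% (85.4 to 96.0, PIIO-1 tumor 4) of Trdv reads. Per kilobase of exon it had the highest mean of all 59 segments, 147 normalized counts, against 84.2 for Trbv13-2.

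Trdv2-2 ranged from 2.45 to 17.2 normalized counts in PBS tumors and from 2.98 to 11.8 in PIIO-1 tumors, and Trdv5 from 1.72 to 4.90 and from 1.01 to 6.35. Trdv4 and Trdv2-2 each lie across an antisense gene, and Trdv5 lies across the delta constant gene Trdc on the opposite strand. The strand setting of the counting is not given in the sources used here, so reads of these partners cannot be told apart. The gamma segment Trgv2 was at 10.5, 5.85, 16.3, 6.24 and 6.89 normalized counts in the PBS tumors and at 0, 6.85, 6.03, 6.35 and 20.0 in the PIIO-1 tumors. In PIIO-1 tumor 1 it was at 0, which allows up to 2.98 normalized counts. Other gamma variable genes stand under the names Tcrg-V1, Tcrg-V4 and Tcrg-V6, outside the symbols examined; summed they ranged from 11.4 to 24.1 normalized counts in PBS tumors and from 4.97 to 23.6 in PIIO-1 tumors.

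Summed over segments, levels were close in the treatment groups. Trbv was at 258 ± 103 normalized counts (SD, n = 5) in PBS tumors and 263 ± 111 (SD, n = 5) in PIIO-1 tumors. Trav was at 80.1 ± 13.0 (SD, n = 5) and 87.7 ± 39.1 (SD, n = 5). Trdv was at 76.7 ± 9.33 (SD, n = 5) and 76.4 ± 23.4 (SD, n = 5). In bulk tumors, fewer T cells and less receptor RNA per cell cannot be told apart.

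Variable levels were also set against the constant genes of the same chain, which rearranged transcripts carry. The Trbv sum was 15.8% ± 3.47 (SD, n = 5) of the sum of Trbc1 and Trbc2 in PBS tumors and 17.1% ± 2.84 (SD, n = 5) in PIIO-1 tumors. The Trav sum was 18.7% ± 3.88 (SD, n = 5) of Trac in PBS tumors and 20.9% ± 2.82 (SD, n = 5) in PIIO-1 tumors. The Trdv sum was a larger part of Trdc, at 67.9% ± 19.3 (SD, n = 5) and 67.0% ± 11.3 (SD, n = 5). These ratios are not corrected for gene length. PBS tumor 1 and PIIO-1 tumor 5 had the highest Trbv sums, 434 and 403 normalized counts, at evenness values of 0.773 and 0.924, so tumors with like beta levels had unlike evenness.

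**Figure D5:**
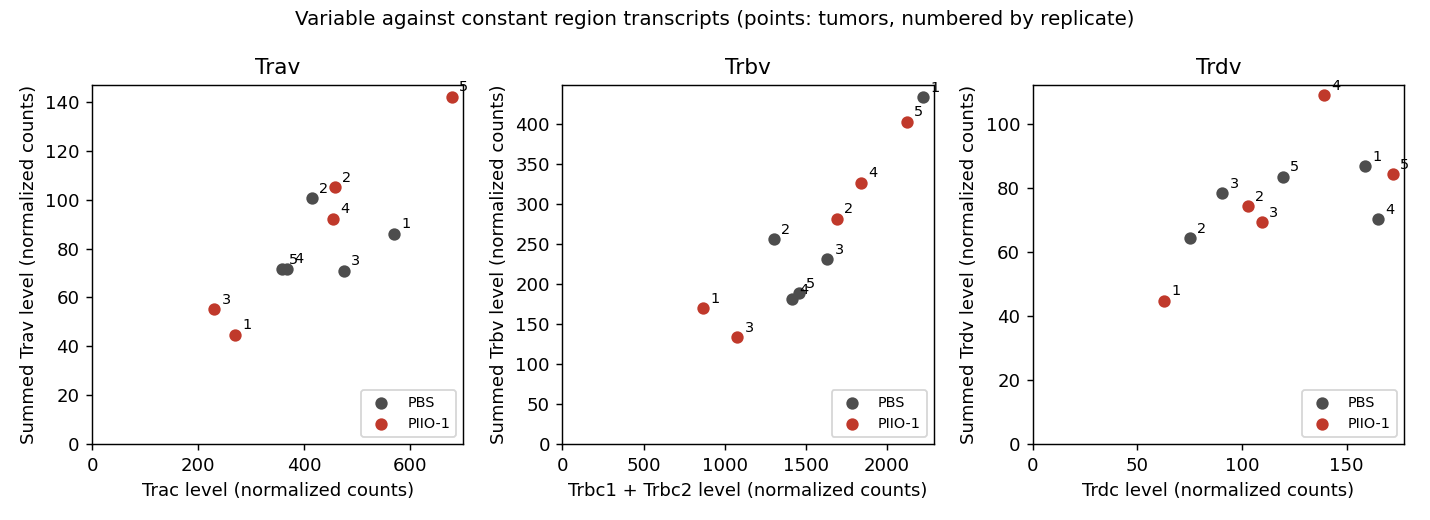
Summed level of variable segments (vertical axis, normalized counts) against the level of the constant genes of the same chain (horizontal axis, normalized counts) for Trav, Trbv and Trdv; points are tumors with their replicate numbers, in 2 colors for PBS and PIIO-1. Both groups lie along the same range, with PBS tumor 1 and PIIO-1 tumor 5 at the upper end for Trbv and PIIO-1 tumors 1 and 3 at the lower end for Trav.

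Single segments were compared by limma on log2(normalized count + 1), over the 16767 genes whose mean reached 10 normalized counts. Of 59 segments, 12 passed that filter: 11 Trbv segments and Trdv4. No segment passed an adjusted p of 0.05, beside 0.00% of all genes tested. At an unadjusted p under 0.05, no segment passed by limma (5.63% of all genes did), by edgeR (5.81%) or by DESeq2 (6.04%). No tested segment was free of overlap between the groups (0.853% of all genes were). With adjustment, edgeR called no gene and DESeq2 called 3 genes (0.0179%), none of them a segment.

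Among the tested segments the smallest p belonged to Trbv3, at 27.7 ± 26.0 normalized counts (SD, n = 5) in PBS tumors and 15.4 ± 5.58 (SD, n = 5) in PIIO-1 tumors. Its difference, PIIO-1 minus PBS, was -0.52 on the log2 scale (SE 0.47, limma adjusted p = 0.879), and -0.090 without PBS tumor 1. Trbv20 had a difference of -0.71 (SE 0.72, limma adjusted p = 0.891), which was -0.043 without PBS tumor 3. In the other direction Trbv13-1 had a difference of 0.61 (SE 0.55, limma adjusted p = 0.880) and Trbv1 one of 0.67 (SE 0.73, limma adjusted p = 0.896). Without PIIO-1 tumor 4 these were 0.29 and 0.34, and without PBS tumor 1 that of Trbv1 was 1.22. The 95% interval of the Trbv1 difference ran from -0.92 to 2.26, so at this spread a difference in either direction lies within it. For Trdv4 the difference was -0.0068 (SE 0.21), with an interval from -0.47 to 0.45. Of the 12 tested segments, 6 had a difference above 0 and 6 below, with a median of 0.10, beside a median of 0.0027 and 51.1% of differences above 0 over all genes.

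Without the filter, all 59 segments could be tested, most of them on few reads. No segment passed adjustment, beside 0.00% of 24202 genes. Of the 59 differences, 36 were above 0 and 23 below, with a median of 0.24, beside a median of 0.0067 and 51.9% above 0 over all genes. At an unadjusted p under 0.05, 4 segments were higher in PIIO-1 tumors (Trav19, Trav3-1, Trav6d-4 and Trav8d-2, where 3.03% of all genes were) and 3 were lower (Trav14d-3-dv8, Trav4n-4 and Trbv17, where 2.37% were). All 7 had a limma adjusted p of 0.874. Trav3-1 had 0 reads in the 5 PBS tumors and 13 in the 5 PIIO-1 tumors, Trav8d-2 had 3 and 23, and Trav6d-4 had 1 and 31. Of the 31 reads of Trav6d-4, 18 came from PIIO-1 tumor 2. Trav19 had 1 and 26. All 4 higher segments reached the 10 reads that every row of the table had only through the PIIO-1 tumors. The listed values of Trav3-1, Trav8d-2 and Trav6d-4 did not overlap between the groups (higher in PIIO-1: 0.545% of all genes), but by 1 read at most. Trav8d-2 had 3 reads in PBS tumor 2 and 3 in PIIO-1 tumor 2, which only the scaling set apart (2.93 and 2.94 normalized counts). The lowest PIIO-1 tumor had 1 read of Trav3-1 and 2 reads of Trav6d-4, within the 3 reads that a value of 0 allows. No segment was lower in PIIO-1 without overlap (0.388% of all genes). In the opposite direction Trav4n-4 had 16 and 0 reads, Trav14d-3-dv8 14 and 2, and Trbv17 31 and 15. Trav4n-4 and Trav14d-3-dv8 reached 10 reads only through the PBS tumors. The segments of this paragraph other than Trav19 and Trav8d-2 were named after their values were seen.

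Other genes of receptor assembly did not pass the test either. None of the constant genes Trac, Trbc1, Trbc2 and Trdc passed, nor any of the 4 CD3 chains, which carry the receptor's signal, nor the 3 coreceptor genes Cd4, Cd8a and Cd8b1. Of 28 joining segments in the table, 8 were high enough to test, and none passed. Of these 8, 7 had a difference above 0, with a median of 0.16 on the log2 scale, beside 51.1% above 0 over all genes. The diversity segment Trbd1 was at 80.9 ± 20.6 normalized counts (SD, n = 5) in PBS tumors and 80.6 ± 38.3 (SD, n = 5) in PIIO-1 tumors. Dntt, whose enzyme adds bases at the junctions, was at 9.92 ± 4.44 (SD, n = 5) and 13.0 ± 7.78 (SD, n = 5).

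Markers of alpha-beta T cells were present in every tumor, with a summed level from 3974 to 7106 normalized counts in PBS tumors and from 2785 to 7099 in PIIO-1 tumors, and 0 of 10 passed the test. Red blood cell genes had a summed level from 5488 to 12848 in PBS tumors and from 8372 to 58643 in PIIO-1 tumors. All 5 of them had a difference above 0 at an unadjusted limma p under 0.05 (5.63% of all genes passed that in either direction), and none passed adjustment. PIIO-1 tumor 5 was the highest tumor for each of the 5, so they are not separate results. B cell markers ranged from 355 to 719 in PBS tumors and from 447 to 1594 in PIIO-1 tumors, with 0 of 6 passing. All 6 had a difference above 0, with a median of 0.77 on the log2 scale, beside 51.1% above 0 over all genes. PIIO-1 tumor 5 was the highest tumor for each of these as well. Every row of the table had at least 10 reads, so no listed marker with a row could be at 0 in all tumors. Rag2 of the thymocyte list and Trgc1, Trgc2, Trgc3 and Trgc4 of the gamma-delta list had no row under these names. Gamma constant genes stood in the table as Tcrg-C1, Tcrg-C2 and Tcrg-C4. In the lists for NK cells (5 genes) and for NKT and MAIT cells (3 genes), none passed either. Of the gamma-delta T cell list 3 genes and of the thymocyte list 2 could be tested, and none passed. The part of these cells in the segment values was not tested.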

How the data were processed

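RNA of 10 whole MB-49 tumors was compared, 5 from PIIO-1-treated and 5 from PBS-treated hLrrc32 knock-in mice; groups come from the treatment label. The titles and column names of the treated tumors read a4D3 where that label reads PIIO-1; columns were matched to tumors by title. The labels' protocols name RNeasy kits for total RNA and an NEBNext Ultra kit for the libraries. The submitters' processing notes name HISAT2, featureCounts, DESeq2 and build GRCm38; for versions, annotation and strand the sources used here give nothing. Per those notes, the signal in the deposited table is gene counts scaled by the authors with DESeq2. Dividing each column by its smallest step gave whole reads (100.0% within 0.001 read), with 18843192 to 37581521 reads per tumor.

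Segments were matched to the GENCODE annotation and transcripts of GRCm38. Shares, evenness and segment numbers were computed from reads, with Wilson intervals at 95%. PIIO-1 was tested against PBS by limma 3.58.1 (R 4.3.3) with a trend, on log2(value + 1) of genes with a mean of at least 10, two-sided, with Benjamini-Hochberg adjustment over all genes tested. The step was also run on simulated counts with 1 spread setting common to all genes. Segments such as Trbv20 (25.2 ± 37.5 normalized counts, SD, n = 5, in PBS tumors) were far more uneven, so that run does not speak for them. Alternatives were edgeR 4.0.16 and DESeq2 1.42.0 on the reads, pseudocounts of 0.5 and 5, no filter, a minimum mean of 50, TMM scaling, no trend, the Cd3 level as a covariate, the replicate number as a block, single tumors left out, and other measures of evenness.

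Segments named were the 8 highest Trav and Trbv and all Trdv and Trgv segments by mean, the most used segment of each tumor, the 3 smallest p in each direction, and segments of innate-like receptors; further names were picked once values were known. The members, the gene lists and the tests were chosen with earlier results of these data known.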

Additional observations from a re-analysis of the deposited data

Results flagged for a closer look

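In groups of 5 tumors, single tumors stood apart for 22 of 80 combinations of group and measure examined (27.5%), 16 in PBS and 6 in PIIO-1 tumors. Chance flags about 1 in 20 groups of normally spread values, but many of these segments were named for being the most used in a tumor and many values are a few reads, so the share cannot be read against that rate. In each case the gap between the highest tumor and the next was most of the group's range. In PBS tumor 1 these were Trbv16 at 120.4 normalized counts (next tumor 18.5), Trbv3 at 73.6 (22.0), Trbv1 at 72.6 (14.6), Trbv12-2 at 28.7 (12.7) and Trav8-1 at 12.4 (3.12). The single reads of Trav19 and of Trav1, at 0.955 each, also stood apart there from 4 tumors at 0.

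In PBS tumor 3 Trbv20 was at 92.3 (next tumor 10.7) and Trav5-4 at 34.3 (5.85), and its most used Trav segment took 48.3% of Trav reads (next tumor 16.5%). In PBS tumor 2 Trav7d-3 was at 16.6 (1.72) and Trav8d-2 at 2.93 (0). In PBS tumor 4 Trav7-4 and Trav6-1 were both at 9.36 (0.975 and 1.63), which is 6 reads each. In PBS tumor 5 Trav8n-2 was at 8.61 (0.955) and Trav14n-1 at 1.72 (0).

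Among PIIO-1 tumors, tumor 2 stood apart for Trav14n-1 at 21.5 (1.99) and tumor 4 for Trav19 at 18.0 (4.54). Tumor 5 did so for Trav3-3 at 13.6 (2.94), Trav5-4 at 9.98 (2.12), Trav1 at 9.98 (1.06) and Trav8-1 at 3.63 (0.995). The lowest of these values rest on very few reads: Trav8d-2 at 2.93 is 3 reads, and Trav14n-1 at 1.72 is 2 reads.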

How the results depend on the processing

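No segment was called under any alternative. For single segments, 21 alternative values had another sign than the reported one. Trbv13-2 (-0.041 as reported, on the log2 scale) was at 0.038 with the Cd3 level as a covariate, 0.073 by edgeR and 0.065 by DESeq2; Trdv4 (-0.0068) was at 0.033, 0.037 and 0.042. With single tumors left out, these ran from -0.30 to 0.31 and from -0.17 to 0.16. Other segments that turned ran from -0.95 to 0.14 (Trbv13-3), -0.55 to 0.37 (Trbv16), -0.028 to 0.43 (Trbv2), -0.065 to 0.64 (Trbv19) and -0.0050 to 1.14 (Trbv12-1). By an inverse Simpson index, on its own scale, the difference in evenness was 0.183 for Trav and 0.107 for Trbv, in the reported direction.

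With single tumors left out, the difference in evenness ran from 0.0209 to 0.0819 for Trav and from 0.0197 to 0.0579 for Trbv, that in segments seen from 2.35 to 5.35 and from 0.100 to 0.850, and that in the share of the most used segment from -7.91 to 1.15 and from -10.4 to -3.71 percentage points. The Trav share turned sign without PBS tumor 3. Summed levels turned sign for all 4 chains (Trav -0.18 to 0.23, Trbv -0.19 to 0.20, Trgv -1.08 to 0.013, Trdv -0.19 to 0.12, log2). They also turned when scaled by total reads in genes for Trav (0.022 to -0.011), and per constant region level for Trbv (-0.011 to 0.12) and Trdv (-0.054 to 0.015). With the replicate number as a block, 0 segments were called; same-numbered tumors did not deviate together (correlations from -0.206 to 0.095), and none correlated best with its own number. TMM scaling moved the median of all genes by -0.0070. Depth was low for Trav (45 to 156 reads per tumor), Trdv (45 to 103) and Trgv (0 to 22). At a minimum mean of 50, 1 segment, Trdv4, could be tested.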
